A study of Homo sapiens with 6 samples.

Results

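The genes described here were 10 genes of the Hippo pathway and its TEAD transcription factors: *YAP1*, *WWTR1* (the gene of the protein TAZ), *TEAD1*, *TEAD3*, *TEAD4*, *AMOTL1*, *AMOTL2*, *AJUBA*, *LATS1* and *LATS2*. They were chosen by gene symbol, though with earlier results of these data known, and all 10 were among the 17047 genes of the deposited expression table. All 10 also passed the filter on low counts, which left 12959 genes for testing. Polyadenylated RNA was sequenced from HCT116 cells, an established human colorectal carcinoma line, to learn how *PLEK2* knockdown changes gene expression. *PLEK2* encodes pleckstrin 2, a protein of the membrane and the cytoskeleton. The control group was 3 libraries with shNC, a non-targeting shRNA, and the knockdown group was 3 libraries with *PLEK2* shRNA. Both shRNAs were delivered in the pLKO.1 lentiviral vector, and no other treatment was given in the labels of either group. A single *PLEK2* shRNA was listed, so an effect of its sequence and an effect of *PLEK2* loss cannot be told apart. Whether the libraries of a group came from separate cultures was not stated, so the p-values measure the spread between these libraries only.

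In the Hippo pathway, the kinases LATS1 and LATS2 phosphorylate the coactivators YAP and TAZ, which are then held in the cytoplasm or degraded. Unphosphorylated YAP and TAZ enter the nucleus and bind TEAD proteins, which contact DNA and switch on genes of growth, adhesion and the cytoskeleton. The pathway reads cell contact and tension, and YAP activity is well known in regeneration and tumours of the intestine. Much of this regulation acts on proteins, which an mRNA level does not show.

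The sequences that bear on these genes are the letters of the shRNA target and of the TEAD recognition core. The 21-base *PLEK2* shRNA target is shown because the same letters elsewhere could be a second target of the hairpin. Its capitals mark the 7 bases that pair with bases 2 to 8 of the guide strand:
*PLEK2* shRNA target: gctggtgtactacAAGCTTGa
The full target was found in 1 of 20020 transcripts (GENCODE 44, 1 canonical transcript per gene), that of *PLEK2*, and in 0 of the 10 genes. The 7-base match stood in the 3′ UTR of 2 of the 10 genes, *WWTR1* and *LATS1*, with 1 match each, against 1310 of 12444 tested genes with a 3′ UTR (10.5%). The 3′ UTR of *TEAD4*, 198 bases long, held no match.

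Promoter windows, from 250 bases before to 50 bases after a start site (RefSeq, GRCh38.p14), were at hand for 8 of the 10 genes, all but *TEAD1* and *TEAD4*. The core letters of the TEAD recognition motif, GGAATG, searched on both strands, stood in 2 of these 8, *YAP1* and *LATS2*, and in 1121 of 10493 tested genes with a window (10.7%). They also stood in 6 of 15 genes of a list of known YAP/TAZ targets (40%), among them *CTGF*, a widely used reporter of YAP activity. *LATS2* is in this list too and is counted both times. Among other genes of the pathway the core letters stood in 5 of 34 (14.7%). These 30-base stretches are shown so that the pathway genes can be set beside *CTGF*, and the capitals mark the core in the direction of the gene:
*YAP1*, chr11:102110273-102110302, plus strand: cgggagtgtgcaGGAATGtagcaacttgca
*LATS2*, chr13:21061560-21061589, minus strand: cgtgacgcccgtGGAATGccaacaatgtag
*CTGF*, chr6:131951524-131951553, minus strand: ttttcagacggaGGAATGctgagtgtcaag
*CTGF*, chr6:131951459-131951488, minus strand: ggaaggtggggaGGAATGcgaggaatgtcc
*CTGF*, chr6:131951450-131951479, minus strand: ggaggaatgcgaGGAATGtccctgtttgtg
Counted from the start site, the core was centred at -159 in *YAP1* and at 12 in *LATS2*. The 3 cores of *CTGF* were centred at -166, -101 and -92, and the last 2 stretches overlap. A match of these letters is a description and not a shown binding site.

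Libraries held between 14377532 and 15602732 estimated counts, and the 10 genes had between 198 and 3337 counts in a library. *PLEK2*, the targeted gene, was read first as a check of the labels. It stood at 86.0, 72.6 and 82.9 CPM (counts scaled to library size with TMM factors) in shNC replicates 1, 2 and 3, and at 16.02, 32.2 and 35.0 CPM in the *PLEK2* shRNA replicates. The groups did not overlap, and the level was lowest in *PLEK2* shRNA replicate 1. Its log2 fold change was -1.54 (SE 0.24), which did not pass edgeR's quasi-likelihood test without a term for the replicate number (adjusted p = 0.684), and -1.57 (SE 0.17) with that term (adjusted p = 0.00106). DESeq2's Wald test without that term did call *PLEK2* (log2 fold change -1.53, adjusted p = 4.8e-07). Same-numbered libraries of the 2 groups deviated together across genes, so the fit with the number as a block was run beside the fit without it. Values from both are given for the 10 genes. For genes of the other lists they are from the fit with the block unless stated. The replicate number itself moved 28.4% of tested genes at an adjusted p under 0.05, and what the number stands for was not stated. Of 8 epithelial markers in the table, 6 averaged at least 1 CPM, namely *EPCAM*, *CDH1*, *KRT8*, *KRT18*, *KRT20* and *CDX2*. The epithelial markers *VIL1* and *CEACAM5* averaged below 1 CPM. Fibroblast markers (4 of 6 in the table, *COL1A1* alone averaging at least 1 CPM) summed to 27.5 to 33.9 CPM with shNC and 25.03 to 28.5 CPM with *PLEK2* shRNA, and blood cell markers (4 of 5, *CD68* alone) to 37.1 to 53.9 and 38.0 to 49.9 CPM. Endothelial markers (3 of 3) summed to at most 1.31 CPM in a library. The epithelial list summed to 6539 to 7518 CPM with shNC and 5161 to 6901 CPM with *PLEK2* shRNA.

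All 10 genes were expressed in HCT116 cells, at levels between 2.64 and 38.5 FPKM, a count corrected for transcript length and library size, so that genes can be compared. Averaged over the 6 libraries, the coactivator gene *YAP1* was highest at 35.6 ± 2.56 FPKM (SD, n = 6), followed by *TEAD4* at 25.9 ± 5.72 and *TEAD1* at 20.5 ± 1.90 FPKM. *WWTR1* at 14.2 ± 1.66 and *TEAD3* at 13.7 ± 1.57 FPKM came next. *AJUBA* averaged 7.73 ± 0.62 and *AMOTL1* 7.53 ± 0.74 FPKM, and *LATS1* (5.59 ± 0.52), *AMOTL2* (5.44 ± 0.61) and *LATS2* (3.33 ± 0.50) closed the order. The ranges of neighbours in this order overlapped between *YAP1* and *TEAD4*, *TEAD4* and *TEAD1*, *WWTR1* and *TEAD3*, *AJUBA* and *AMOTL1*, and *LATS1* and *AMOTL2*. Within each library, however, *YAP1* exceeded *TEAD4* in 6 of 6 and *TEAD4* exceeded *TEAD1* in 5 of 6, whereas *WWTR1* exceeded *TEAD3* in 3 of 6. Ranges did not overlap between *TEAD1* and *WWTR1*, *TEAD3* and *AJUBA*, *AMOTL1* and *LATS1*, or *AMOTL2* and *LATS2*. The coactivator and TEAD genes averaged above the median tested gene (10.2 FPKM), and the adaptor and kinase genes below it.

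**Figure D1:**
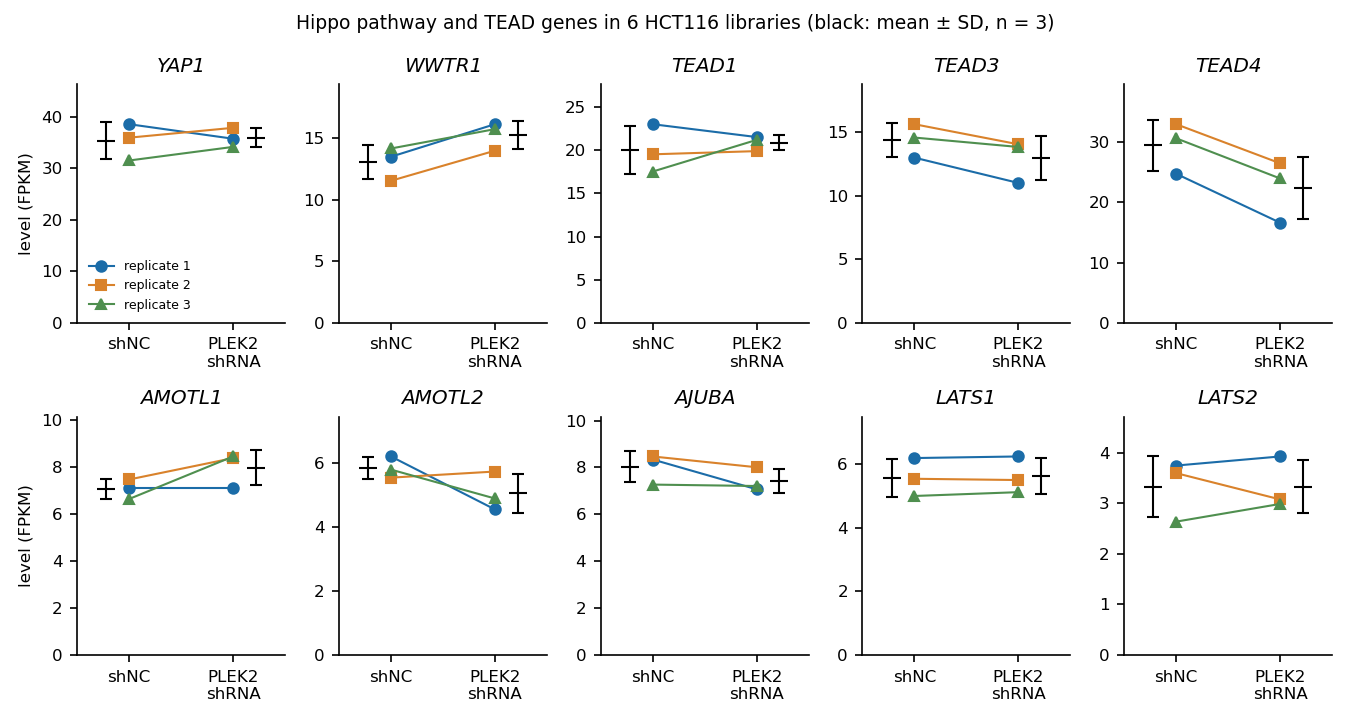
Level of each of the 10 genes in FPKM (y axis, from 0) in shNC and PLEK2 shRNA libraries; coloured points are libraries, lines join libraries with the same replicate number, and black marks are mean ± SD (n = 3). TEAD4 was lower in the PLEK2 shRNA library of all 3 pairs and WWTR1 was higher, while the points of the 2 groups overlapped in every panel.

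Across the 10 genes, *TEAD4* was lower in *PLEK2* shRNA libraries by 26.3% in the fit with the replicate block. With all 6 libraries it was the 1 gene that edgeR called at an adjusted p under 0.05, with the block and not without it. *WWTR1* was higher in all 3 pairs and *TEAD3* and *LATS1* were lower in all 3 without passing, so that with *TEAD4* 4 of 10 genes kept 1 direction, against 40.9% of all tested genes. The log2 fold changes of the 7 genes beside *TEAD4*, *WWTR1* and *TEAD3* lay between -0.24 and 0.14. Without the block, 0 of 10 genes passed (all tested genes 0 of 12959, 0%), and 1 of 10, *TEAD4*, had an unadjusted p under 0.05, as did 3.09% of all genes. DESeq2's Wald test without the block called 12 of all genes and 0 of the 10. With the block, 1 of 10 passed, against 0.849% of all genes (0.725% as lower), and 4 of 10 had an unadjusted p under 0.05, against 18.3%. Of these, 1 (*WWTR1*) was higher and 3 (*TEAD3*, *TEAD4*, *AMOTL2*) were lower, against 7.89% and 10.4%. In 0 of 10 genes were the groups free of overlap, against 9.21% of all genes (4.08% with *PLEK2* shRNA higher and 5.12% lower). The bulk levels cannot tell fewer cells with an mRNA from less of it per cell.

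*YAP1* encodes the main coactivator that the pathway restrains. Its level was 200.2, 188 and 165 CPM in shNC replicates 1, 2 and 3, and 180, 191 and 174 CPM in *PLEK2* shRNA replicates 1, 2 and 3. All *PLEK2* shRNA values lay inside the shNC range, and the highest and the lowest library were both shNC. The means were 184.4 ± 17.98 and 182 ± 8.58 CPM (SD, n = 3), a log2 fold change of -0.02 (SE 0.09, edgeR adjusted p = 0.987). With the block the 95% interval ran from -0.14 to 0.11.

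*WWTR1* encodes TAZ, the paralogue of YAP that binds the same TEAD partners. It stood at 68.1, 58.2 and 70.6 CPM in the shNC libraries and at 78.4, 69.3 and 77.2 CPM in the *PLEK2* shRNA libraries. Each *PLEK2* shRNA library was above its own shNC pair, yet the lowest of them lay below shNC replicate 3. Pair differences were 0.20, 0.25 and 0.13 (log2), with an SD of 0.06 between pairs. Group means were 65.6 ± 6.57 and 74.98 ± 4.94 CPM, with a log2 fold change of 0.19 (SE 0.10, edgeR adjusted p = 0.968). With the block the estimate was again 0.19 (SE 0.06), the 95% interval ran from 0.07 to 0.32, and the adjusted p was 0.116. Higher levels in all 3 pairs were found for 19.9% of all tested genes.

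The TEAD genes encode the DNA-binding partners, and they share a recognition motif. *TEAD1* read 218, 184 and 163 CPM in shNC replicates 1, 2 and 3 and 196, 185 and 195 CPM under *PLEK2* shRNA. The shNC libraries spread on either side of the knockdown libraries, with SDs of 27.3 and 6.26 CPM around means of 188 and 192 CPM. Its pairs went in both directions, -0.15, 0.005 and 0.25 (log2), and the log2 fold change was 0.03 (SE 0.11, edgeR adjusted p = 0.987; with the block, 95% interval -0.11 to 0.18).

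*TEAD3* had 37.7, 45.2 and 41.8 CPM with shNC and 30.7, 40.0 and 39.1 CPM with *PLEK2* shRNA. Replicate 1 was the lowest library of each group. The means were 41.5 ± 3.75 and 36.6 ± 5.12 CPM, and the pairs differed by -0.29, -0.17 and -0.10 (log2). Neither fit called the gene (log2 fold change -0.18, SE 0.13, edgeR adjusted p = 0.968 without the block and -0.19, SE 0.07, adjusted p = 0.177 with it). Lower levels in all 3 pairs were found for 21.1% of all tested genes.

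*TEAD4*, the TEAD gene with the highest mean FPKM in these cells, read 41.2, 54.8 and 50.5 CPM in shNC replicates 1, 2 and 3. The *PLEK2* shRNA libraries read 26.8, 43.3 and 38.9 CPM. Replicate 1 was the lowest of both groups, and shNC replicate 1 lay below *PLEK2* shRNA replicate 2, so the groups overlapped although each pair differed in the same direction. Pair differences were -0.61, -0.34 and -0.37 (log2). Group means were 48.8 ± 6.95 and 36.3 ± 8.57 CPM, and the fit without the block gave a log2 fold change of -0.43 (SE 0.18, 95% interval -0.84 to -0.02, unadjusted p = 0.0429, edgeR adjusted p = 0.968). With the replicate block it was -0.44 (SE 0.07, 95% interval -0.60 to -0.28, adjusted p = 0.0167), the 30th smallest p of 12959. Leaving replicate 2 out of both groups gave -0.48 with an adjusted p of 0.15 in the fit with the block, while leaving out replicate 1 or replicate 3 gave adjusted p-values of 0.00401 and 0.000992.

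The first pair had the largest difference in *TEAD4* and also the largest in *PLEK2* (-2.39 log2, against -1.16 and -1.23). *TEAD4* was at the same time the member that moved most with the replicate number: taken over both groups, replicates 2 and 3 were 0.54 and 0.41 (log2) above replicate 1 (edgeR adjusted p = 0.00212). What this number carries into the difference between groups, beyond what the block removes, was not tested.

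**Figure D2:**
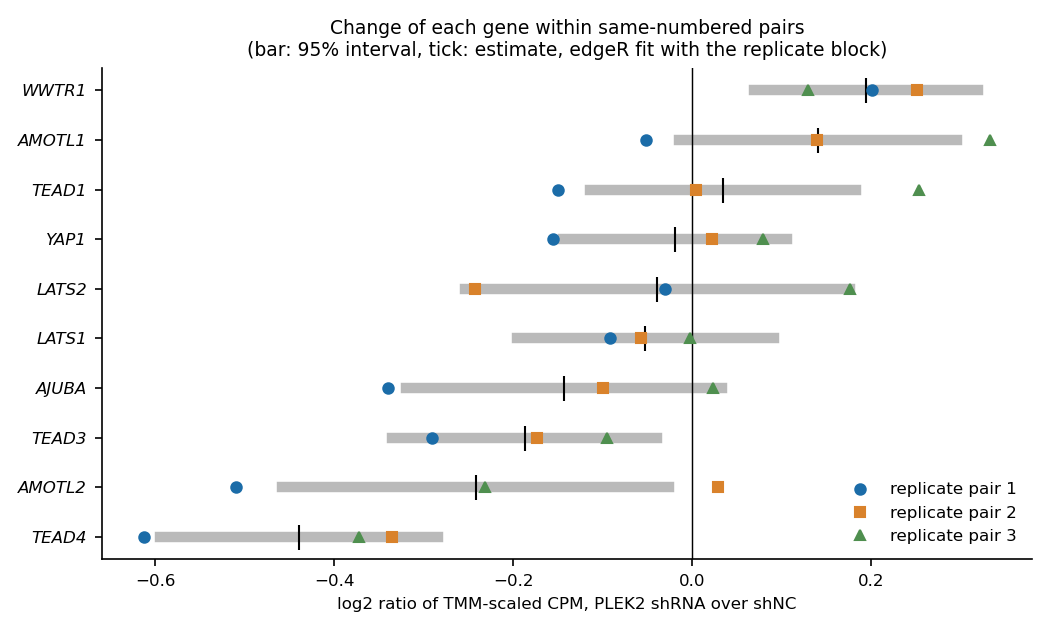
Log2 ratio of TMM-scaled CPM, PLEK2 shRNA over shNC (x axis), within each same-numbered pair (points) for the 10 genes (y axis), with the edgeR estimate (tick) and 95% interval (grey bar) from the fit with the replicate block. The interval of TEAD4 runs from -0.60 to -0.28 and that of WWTR1 from 0.07 to 0.32, while those of YAP1, TEAD1, AMOTL1, AJUBA, LATS1 and LATS2 cross 0.

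The make-up of the TEAD family was read as shares of the summed FPKM of *TEAD1* to *TEAD4*, with *TEAD2*, which is not one of the 10 genes, included at a mean of 8.01 FPKM. *TEAD4* took 36.3%, 43.5% and 43.2% of the sum in shNC replicates 1, 2 and 3 and 29.1%, 38.6% and 35.3% in the *PLEK2* shRNA replicates. It was the largest share in each of the shNC libraries and in *PLEK2* shRNA replicates 2 and 3, and *TEAD1* was the largest in *PLEK2* shRNA replicate 1, at 37.7%. The share of *TEAD3* was 20.1 ± 0.89% and 20.1 ± 0.68% in the 2 groups. That of *TEAD2* was 10.8 ± 0.71% with shNC and 12.95 ± 1.06% with *PLEK2* shRNA. The shares are given as a description, without a test.

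*AMOTL1* and *AMOTL2* encode angiomotin-like proteins of cell junctions that bind YAP and hold it outside the nucleus. *AMOTL1* stood at 63.8, 67.0 and 58.4 CPM with shNC and at 61.5, 73.9 and 73.7 CPM with *PLEK2* shRNA. Replicates 2 and 3 of the knockdown were above all shNC libraries, and replicate 1 was below shNC replicates 1 and 2. The log2 fold change was 0.14 (SE 0.10, edgeR adjusted p = 0.968), and with the block 0.14 (SE 0.07, adjusted p = 0.317). Without replicate 1 in both groups the block fit gave 0.24 with an adjusted p of 0.0316.

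*AMOTL2*, itself a known target of YAP and TEAD, read 27.2, 24.0 and 24.7 CPM with shNC and 19.0, 24.5 and 20.9 CPM with *PLEK2* shRNA. The 2 lowest libraries were knockdown replicates 1 and 3, and knockdown replicate 2 lay inside the shNC range. Means were 25.3 ± 1.68 and 21.5 ± 2.82 CPM. Its pairs differed by -0.51, 0.03 and -0.23 (log2), with a spread between pairs (SD 0.27) above the size of the log2 fold change, -0.24 (SE 0.12, edgeR adjusted p = 0.968; with the block SE 0.10, adjusted p = 0.225).

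*AJUBA* encodes a LIM-domain scaffold that binds LATS kinases and limits their activity. Its 3 shNC libraries had 34.8, 35.1 and 28.3 CPM and its 3 *PLEK2* shRNA libraries 27.4, 32.7 and 28.7 CPM. The lowest library was a knockdown library and the 2 highest were shNC libraries, but shNC replicate 3 lay among the knockdown values. The log2 fold change was -0.14 (SE 0.12, edgeR adjusted p = 0.968; with the block SE 0.08, adjusted p = 0.374).

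*LATS1* and *LATS2* encode the kinases that phosphorylate YAP and TAZ, and *LATS2* is also a known YAP target. *LATS1* read 42.2, 37.2 and 34.1 CPM with shNC and 39.5, 35.7 and 34.1 CPM with *PLEK2* shRNA. The 2 groups ran side by side, with replicate 1 highest and replicate 3 lowest in both. Its pair differences were -0.09, -0.06 and -0.002 (log2), and the log2 fold change was -0.05 (SE 0.11, edgeR adjusted p = 0.972; with the block, 95% interval -0.20 to 0.09). In FPKM the direction was not kept, since *LATS1* was 5.57 ± 0.60 with shNC and 5.61 ± 0.57 with *PLEK2* shRNA.

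*LATS2*, the lowest of the 10 genes, had 20.5, 19.1 and 13.7 CPM with shNC and 20.0, 16.03 and 15.6 CPM with *PLEK2* shRNA. The spread within shNC (SD 3.57 CPM) was larger than the difference between the means, 17.7 and 17.2 CPM. The log2 fold change was -0.04 (SE 0.17, edgeR adjusted p = 0.987), and the interval with the block, -0.25 to 0.18, was the widest among the 10 genes after that of *AMOTL2*.

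The pooled within-group SD on the log2 scale was 0.29 for *TEAD4* and 0.25 for *LATS2*, and between 0.11 (*YAP1*) and 0.17 (*TEAD3*) for the other 8, against a median of 0.15 over all tested genes. Replicate number moved *TEAD4*, *TEAD3* (edgeR adjusted p = 0.0276) and *LATS2* (adjusted p = 0.0322), 3 of 10 genes against the 28.4% of all genes given above. The directions were not shared: *TEAD3* was 0.32 and 0.25 (log2) higher in replicates 2 and 3 than in replicate 1, and *LATS2* was 0.21 and 0.47 lower.

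**Figure D3:**
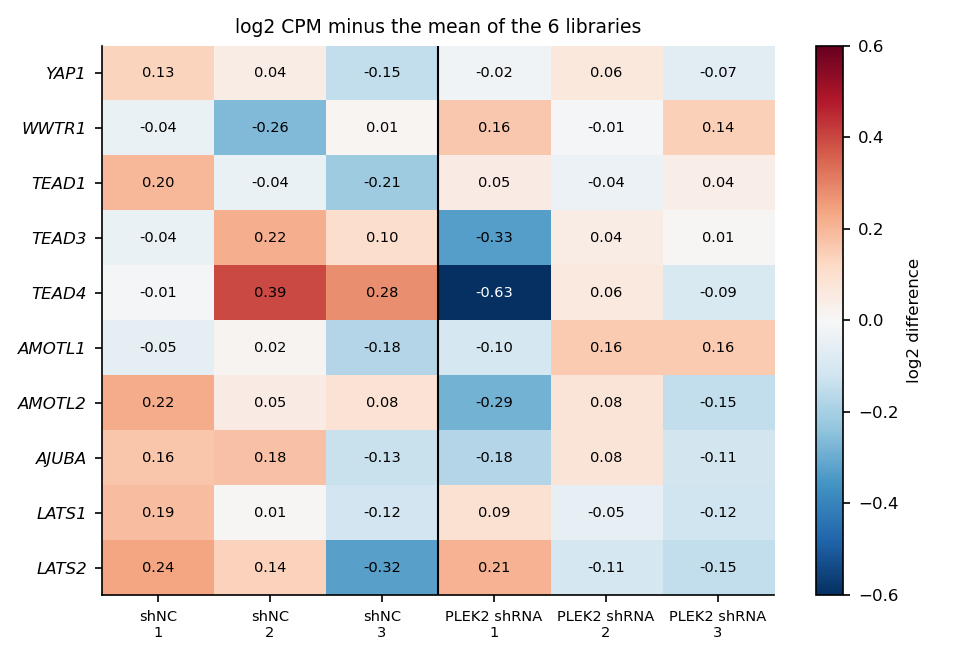
Difference of log2 CPM from the mean of the 6 libraries (colour, with the value printed) for the 10 genes (rows) in each library (columns), shNC left of the line and PLEK2 shRNA right of it. TEAD4 ranges from 0.39 in shNC replicate 2 to -0.63 in PLEK2 shRNA replicate 1, and TEAD3 is lowest in the same library at -0.33. TEAD3, TEAD4, LATS1 and LATS2 each show the same order of replicates in both groups.

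Ratios between paralogues were compared within each library, since they do not depend on the library total. The choice of these 4 ratios followed a look at their values, and an exact two-sided permutation test of 3 libraries against 3 cannot give a p below 0.1. Differences within the 3 pairs were also taken, for which the smallest exact p is 0.25. *AMOTL1* over *AMOTL2* (FPKM) was 1.15, 1.35 and 1.15 with shNC and 1.57, 1.47 and 1.73 with *PLEK2* shRNA. The groups did not overlap, with means of 1.22 ± 0.12 and 1.59 ± 0.13, a log2 difference of 0.39 (SE 0.11), higher in 3 of 3 pairs (exact permutation p = 0.1, 0.4 after Benjamini-Hochberg adjustment over the 4 ratios). *TEAD1* over *TEAD4* was 0.93, 0.59 and 0.57 with shNC and 1.30, 0.75 and 0.89 with *PLEK2* shRNA. It was higher in 3 of 3 pairs, but the groups overlapped through shNC replicate 1 (log2 difference 0.48, SE 0.32, exact permutation p = 0.3, adjusted 0.4). Within pairs the differences of 0.48, 0.34 and 0.63 were closer together, with an SE of 0.08 (exact sign-flip permutation p = 0.25, adjusted 0.33). The *AMOTL1* to *AMOTL2* differences within pairs were 0.45, 0.12 and 0.59, with an SE of 0.14 (exact sign-flip permutation p = 0.25, adjusted 0.33).

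*YAP1* over *WWTR1* was 2.86, 3.12 and 2.23 with shNC and 2.22, 2.71 and 2.17 with *PLEK2* shRNA. It was lower in 3 of 3 pairs with overlapping groups, a log2 difference of -0.20 (SE 0.18, exact permutation p = 0.2, adjusted 0.4; SE within pairs 0.10, exact sign-flip permutation p = 0.25). The *LATS1* to *LATS2* ratio averaged 1.69 in both groups, with SDs of 0.18 and 0.10 (exact permutation p = 1).

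**Figure D4:**
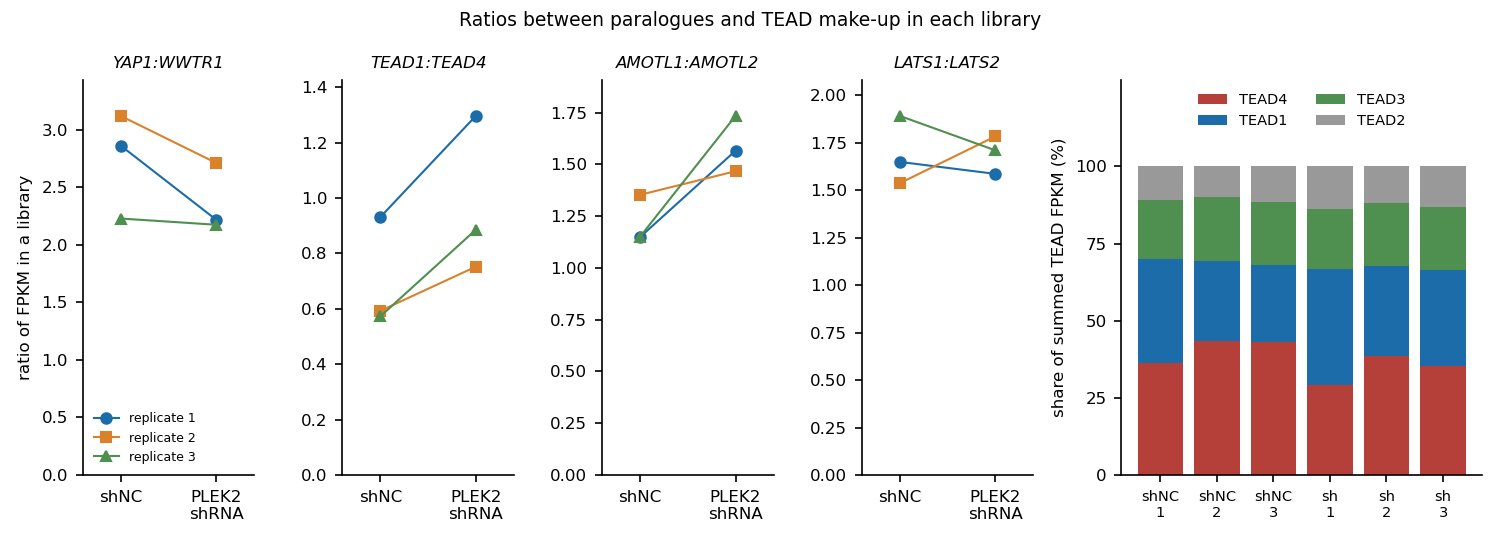
Left, ratio of FPKM between paralogues in each library (y axes from 0; lines join same-numbered libraries). Right, share of the summed FPKM of TEAD1 to TEAD4 (%) in each library, where "sh" is PLEK2 shRNA; TEAD4 averages 41.0 ± 4.10% with shNC and 34.3 ± 4.84% with PLEK2 shRNA, and AMOTL1:AMOTL2 is the ratio whose groups do not overlap.

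Among the genes whose pattern over the 6 libraries lay closest to *TEAD4*, by root mean square difference of centred log2 CPM, were *PLEC* (0.038), which encodes the cytoskeletal linker plectin, and *GNA11* (0.062), which encodes a G protein alpha subunit. Among the 12519 genes compared the median distance was 0.34. Both were called lower in the fit with the block, with log2 fold changes of -0.44 and -0.52 (edgeR adjusted p = 0.00413 and 0.00333), as follows from the choice by likeness to *TEAD4*.

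Other genes of the pathway were read from a list of 45 genes, all in the table, of which 43 were tested. It held upstream kinases, polarity and junction proteins, phosphatase complex parts and ubiquitin ligase parts. Without the block 0 of 43 passed with edgeR and 2 had an unadjusted p under 0.05, against 0% and 3.09% of all genes. With the block 0 of 43 passed at an adjusted p under 0.05 with edgeR, against 0.849% of all genes. DESeq2 with the block called 0 and gave an adjusted p to 27 of the 45. In the edgeR block fit 10 had an unadjusted p under 0.05, 5 higher and 5 lower, against 18.3% of all genes (7.89% higher and 10.4% lower). The median log2 fold change was 0.04, against -0.05 for the 10 genes and -0.002 for all tested genes. The 5 with the smallest p were *LLGL2*, a polarity gene (log2 fold change -0.24, adjusted p = 0.0521), *STK3*, which encodes the kinase MST2 upstream of LATS (0.27, adjusted p = 0.105), *FBXW11*, of the ubiquitin ligase that degrades YAP and TAZ (0.21, adjusted p = 0.118), *MAP4K3*, another kinase that acts on LATS (0.25, adjusted p = 0.121), and the polarity gene *SCRIB* (-0.16, adjusted p = 0.149). Without the block the edgeR adjusted p was 0.968 for each of these 5 genes. The groups did not overlap for 5 of the 43 genes, against 9.21% of all genes. These were *FBXW11*, *FRMD6* and *STK4*, which were higher, and *LLGL2* and *SAV1*, which were lower, the names beyond the 5 above being given after their values were seen.

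Known YAP/TAZ targets, the readout of the pathway, formed a list of 22 genes that shares *AMOTL2* and *LATS2* with the 10 genes and *PTPN14* with the other pathway genes. Of these, 21 were in the table and 18 were tested. Without the block, 0 of 18 passed with edgeR and 2 had an unadjusted p under 0.05, against 0% and 3.09% of all genes. With the block, 0 of 18 passed at an adjusted p under 0.05 with edgeR, against 0.849% of all genes. DESeq2 with the block called 0 of the 7 to which it gave an adjusted p. The counts that follow are from the edgeR block fit. An unadjusted p under 0.05 was found for 8, with 7 lower and 1 higher, against 10.4% and 7.89% of all genes. The 7 include *AMOTL2* and *PTPN14*, which were already counted as lower above. Without the genes shared with the 10, 6 of 16 were lower and 1 was higher. Of the 18, 13 had a log2 fold change below 0, as did 6552 of the 12959 tested genes, and the median was -0.12, against -0.002 for all tested genes, with medians of -0.21, -0.02 and -0.04 in pairs 1, 2 and 3. The 10 genes also had their lowest median in pair 1 (-0.15, against -0.03 and 0.05).

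*AXL*, a receptor tyrosine kinase gene, had the smallest p of the targets. It read 76.9, 58.7 and 55.9 CPM with shNC and 48.6, 46.6 and 50.4 CPM with *PLEK2* shRNA, so that every knockdown library was below every shNC library (log2 fold change -0.39, SE 0.08, edgeR adjusted p = 0.0510 with the block). *F3*, the tissue factor gene, read 38.3, 30.4 and 28.6 CPM and then 21.9, 26.7 and 28.2 CPM, also without overlap, though replicate 3 was nearly level (-0.34, SE 0.12, adjusted p = 0.159). *CYR61* (-0.20, adjusted p = 0.181), *PTPN14* (-0.28, adjusted p = 0.193) and *NT5E* (-0.18, adjusted p = 0.209) followed, each with overlapping groups. In pair 1 they differed by -0.38, -0.71 and -0.41 (log2), in this order. Pairs 2 and 3 gave -0.03 and -0.17, -0.004 and -0.12, and -0.08 and -0.04. Without the block the edgeR adjusted p was 0.968 for each of *AXL*, *F3*, *CYR61*, *PTPN14* and *NT5E*. The groups were free of overlap for 3 of the 18 targets, against 9.21% of all genes (4.08% higher and 5.12% lower). Beside *AXL* and *F3* this was *GADD45A*, which was higher with *PLEK2* shRNA (0.17, SE 0.07, adjusted p = 0.212). *CTGF*, which carries the 3 core motifs printed above, was close to the floor of this depth with 8 to 23 counts in a library, and its log2 fold change of -0.56 (SE 0.35, 95% interval -1.31 to 0.18, adjusted p = 0.407) spans 0. *ANKRD1*, another common reporter of YAP, had at most 1 count in a library and was not tested.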

How the data were processed

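RNA from HCT116 cells was sequenced as single-end reads in 6 libraries, grouped by the labels into 3 shNC and 3 *PLEK2* shRNA libraries. The authors deposited estimated counts per gene, not normalized (84.2% to 85.4% of the values in a library were whole), and FPKM values, recognised from their ratio to the counts since the header gives no unit. The submitters' processing notes list HISAT2 2.0.4, Bowtie2 2.2.5, RSEM 1.2.12 and DESeq2 1.4.5, and a mouse build, GRCm38.p6, for these human libraries, so no gene coordinates were taken over. Strand use was not given in the sources used here, so reads of overlapping antisense genes cannot be told apart.

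Counts were rounded, filtered (filterByExpr), TMM scaled and tested with edgeR 4.0.16 (quasi-likelihood, Benjamini-Hochberg adjustment over all 12959 tested genes, R 4.3.3), with and without the replicate number as a block. The number paired the libraries: over 10151 genes, departures from the mean of a group had correlations of 0.73, 0.55 and 0.55 for equal numbers. For unequal numbers they were -0.63 to -0.54 where replicate 1 was involved, and 0.35 between replicates 2 and 3. Replicate 1 thus stood apart clearly, and replicates 2 and 3 were separated less. The labels share the numbers but state no day or batch. No library was a copy of another. DESeq2 1.42.0 and limma 3.58.1 (log2(FPKM + 1) and log2(FPKM + 0.1)) were alternatives, with other scalings and filters and each library or pair left out. The steps were tested on simulated data.

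The 10 genes, the lists (written from general knowledge) and the tests were chosen with earlier results of these data known. Named beside the 10 genes and *PLEK2* were the 5 genes of each list with the smallest p with the block and the 3 genes most like *TEAD4*, with a mean of at least 1 CPM, of which 1 is not reported here. *CTGF*, *ANKRD1*, *GADD45A*, *TEAD2* and the 4 ratios were chosen after their values were seen.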

Additional observations from a re-analysis of the deposited data

How the results depend on the processing

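Of 12959 tested genes, edgeR called 0 without the block, 110 with it and 192 with the block and library totals. Among genes given an adjusted p, DESeq2 called 12 of 17020 without the block and 51 of 5141 with it. Leaving out 1 library gave between 0 and 1 calls without the block (1 without *PLEK2* shRNA replicate 1). With the block, dropping replicates 1, 2 or 3 from both groups gave 528 calls of 13014 genes, 18 of 13003 and 297 of 12988. For the 10 genes the block gave 1 call (*TEAD4*), and 1 with library totals. It gave 2 without replicate 1 (*AMOTL1*, *TEAD4*), 0 without replicate 2 and 1 without replicate 3. In the edgeR fit, the block turned *PLEK2*, *TEAD4*, *PLEC* and *GNA11* into calls and changed no call of another gene among the 10 or named from the lists. *PLEK2* was also called by DESeq2 without the block. Pairing left the 4 log2 ratio differences as they were. Of the other pathway genes, with the block, 3 of 43 passed without replicate 1 (*FBXW11*, *LLGL2*, *TAOK1*) and 0 without replicate 2. Without replicate 3, 2 of 43 passed (*LLGL2*, *PTPN14*), and with library totals 0. Of the targets, 1 of 18 passed with the block and library totals (*AXL*) and 3 of 18 without replicate 3 (*AXL*, *F3*, *PTPN14*). Without replicate 1, 0 of 17 targets passed, and without replicate 2, 0 of 18. The counts over all genes in these settings are given above.

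Over 19 alternatives the log2 fold change of *TEAD4* lay between -0.57 and -0.25, and *TEAD3*, *AMOTL2* and *AJUBA* kept their negative and *WWTR1* and *AMOTL1* their positive sign. Small values turned sign. *YAP1* was 0.0099 with library totals (0.012 with the block), 0.026 and 0.027 with limma, 0.056 with the block and no replicate 1, and -0.087 to 0.054 with 1 library left out. *TEAD1* was -0.063 with the block and no replicate 3, and -0.056 to 0.16 with 1 library left out. *LATS1* was 0.0099 and 0.012 with limma, and -0.12 to 0.045 with 1 library left out. *LATS2* was 0.0043 and 0.0070 with limma, 0.080 with the block and no replicate 2, and -0.19 to 0.085 with 1 library left out. The *LATS1* to *LATS2* ratio, an analysis chosen after seeing the data, ranged from -0.062 to 0.087 (log2). The cause was not tested in any of these. DESeq2 with the block called 0 of the 4 genes among the 10 to which it gave an adjusted p, and gave none for *TEAD4* (log2 fold change -0.43, unadjusted p = 0.00021). Depth limits *LATS2* most, at 198 to 315 counts in a library.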
